A study of Mus musculus with 24 samples.

Results

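The cytosolic sulfotransferases described here were Sult1a1, Sult1b1, Sult1c2, Sult1d1, Sult2a8 and Sult5a1, 6 of the 55421 genes in the count table, taken by gene name. They were measured by RNA sequencing of polyadenylated RNA from isolated hepatocytes of 24 male mice on a C57BL/6 background, with 6 mice in each of 4 groups. YND mice (6 months, C57BL/6N by the labels) were fed a normal chow and YHFD mice of the same age and substrain a high-fat diet (HFD) with 60% of energy from fat, both for 9 weeks, and OND and OHFD mice (24 months, C57BL/6J by the labels) were fed the same diets. Age and substrain differed together and cannot be told apart, and the study's own text gives other ages and no substrain. It also names a low-fat control diet where the labels name a chow, so which diet the HFD values are set against is not settled. Hepatocytes were obtained by liver perfusion, and the labels name 2 batches, each of which held mice of every group. The design asks how diet, age and their combination bear on these genes.

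Sulfotransferases of the cytosol move a sulfonate group from the donor PAPS to small molecules such as phenols, catecholamines, thyroid hormones, steroids and bile acids, which makes them more water-soluble and usually less active. The liver is a main site of this conjugation. The donor is made from inorganic sulfate by the PAPS synthases, and the sulfate itself comes from the diet and from the breakdown of cysteine. The family is named by sequence: SULT1 enzymes act mainly on phenolic substrates and SULT2 enzymes mainly on hydroxysteroids and bile acids.

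All 6 genes were on the reverse strand of the GRCm38 (mm10) assembly. Sult1b1 (chr5:87513339-87538195) and Sult1d1 (chr5:87554645-87569027) were neighbours on chromosome 5, beside Sult1e1. Sult2a8 (chr7:14410686-14446769) lay in the Sult2a cluster on chromosome 7 and Sult1a1 (chr7:126672865-126676432) elsewhere on that chromosome. Sult1c2 was at chr17:53829637-53846339 and Sult5a1 at chr8:123140192-123158315. Sult1a1 shared 61 bases with Sgf29 on the opposite strand, and the whole of Sult5a1 lay within Gm20388 on the opposite strand. Since strand use in counting was not stated, reads there could not be assigned to a strand. No member had a near-identical copy: the closest relative in coding sequence, aligned over at least 800 bases, was 71.6% identical for Sult2a8 (Sult2a5), 67.5% for Sult1c2 (Sult1c1) and 60.0% to 63.8% for the other 4.

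The 250 bases before a RefSeq start (GRCm38.p6) are shown for the pair of most abundant genes, Sult1a1 and Sult2a8, and for the neighbours Sult1b1 and Sult1d1. Capitals mark matches, on either strand, to 6 short motifs: the TATA box (TATAAA), the nuclear receptor core (AGGTCA), an HNF1 core (GTTAAT), an HNF4 core (CAAAGT), a STAT site (TTCNNNGAA) and the antioxidant response core (TGACNNNGC). No capitalised matches overlapped each other.
Sult1a1, chr7:126676419-126676668, reverse strand: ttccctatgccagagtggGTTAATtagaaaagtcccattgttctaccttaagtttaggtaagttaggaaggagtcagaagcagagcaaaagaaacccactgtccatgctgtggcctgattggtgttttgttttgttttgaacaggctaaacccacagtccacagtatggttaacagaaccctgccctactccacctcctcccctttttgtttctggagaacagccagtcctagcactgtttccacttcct
Sult2a8, chr7:14438552-14438801, reverse strand: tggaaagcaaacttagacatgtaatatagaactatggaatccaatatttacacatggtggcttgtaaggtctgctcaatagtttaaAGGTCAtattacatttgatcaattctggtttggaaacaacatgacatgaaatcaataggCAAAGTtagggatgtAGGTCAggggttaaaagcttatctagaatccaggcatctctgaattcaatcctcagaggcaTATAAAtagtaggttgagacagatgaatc
Sult1b1, chr5:87538196-87538445, reverse strand: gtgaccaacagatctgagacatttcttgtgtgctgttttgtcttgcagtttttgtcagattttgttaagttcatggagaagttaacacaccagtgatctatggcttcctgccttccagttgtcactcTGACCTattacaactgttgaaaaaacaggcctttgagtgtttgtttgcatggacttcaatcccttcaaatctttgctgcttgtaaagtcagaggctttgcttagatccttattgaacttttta
Sult1d1, chr5:87569007-87569256, reverse strand: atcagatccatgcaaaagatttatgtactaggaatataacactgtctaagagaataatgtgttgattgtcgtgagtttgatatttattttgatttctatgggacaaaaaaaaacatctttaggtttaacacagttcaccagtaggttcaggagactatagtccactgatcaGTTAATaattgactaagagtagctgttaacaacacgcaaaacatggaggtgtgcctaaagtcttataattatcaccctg
The Sult2a8 window, at one of 2 RefSeq starts of that gene, held a TATA box 29 bases before the start, 2 nuclear receptor cores and an HNF4 core. Sult1a1 and Sult1d1 each held 1 HNF1 core. The Sult1b1 window shown, also at one of 2 RefSeq starts, held 1 nuclear receptor core, and the window at the other start held no match. Over 32817 promoter windows of the same length, 12.4% held the TATA motif, 14.03% the nuclear receptor core, 6.44% the HNF1 core, 12.6% the HNF4 core, 7.01% the STAT site and 10.2% the antioxidant core, so that single matches are common. Such a match is a description of letters, not of binding.

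Library totals ranged from 9200332 to 22185069 counted reads, and the OHFD libraries were the shallowest. Hepatocyte markers were abundant in every mouse (Alb, at least 29008 CPM, read counts scaled to a library size of 1000000), and the summed CPM of the 10-gene hepatocyte list ran from 55434 to 165009. Markers of other liver cells were present at low levels, and several lists were higher with age on the normal diet: all 9 macrophage and Kupffer cell markers rose in OND over YND, with summed CPM of 1.48 to 68.4 in YND, 12.5 to 169 in YHFD, 43.8 to 1061 in OND and 51.5 to 539 in OHFD. Markers of T and NK cells and of B and plasma cells were at low levels (summed CPM of up to 8.06 and 15.6), and 2 of the 3 and 2 of the 2 tested also rose in OND over YND. One library stood apart, OND replicate 4, which had the highest macrophage sum (1061), the lowest hepatocyte sum (55434) and within its group the lowest level of all 6 sulfotransferases, so the fold changes that use OND are given with and without it for the 6 genes and for Csad, Galns and Sult1e1. For these last 3 genes that alternative was chosen after seeing the data. In whole hepatocyte preparations, fewer cells of a type and less RNA per cell cannot be told apart.

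By read number, without scaling for length, Sult2a8 took most of the members' reads. Sult2a8, a hepatic enzyme known for sulfating bile acids, had group means of 866 ± 126 CPM in YND, 784 ± 198 in YHFD, 530 ± 231 in OND and 769 ± 285 in OHFD (SD, n = 6). It took 71.2% ± 3.53 of the members' summed CPM in YND, 63.1% ± 3.61 in YHFD, 56.4% ± 6.197 in OND and 57.6% ± 6.57 in OHFD (SD, n = 6). The share in YND mice (66.4% to 76.6%) did not overlap that in OND mice (48.4% to 64.7%, or 49.9% to 64.7% without replicate 4), and lay just above that in YHFD mice, whose highest share was 66.3727% against a lowest of 66.3742% in YND. These are shares of reads, not scaled by gene length.

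Levels were then compared between genes per length. In the deposited FPKM values, averaged over the 4 groups, the order was Sult1a1 (94.99 FPKM), Sult2a8 (20.7), Sult1d1 (7.42), Sult1b1 (1.24), Sult5a1 (0.484) and Sult1c2 (0.306). Among 37789 genes in that table Sult1a1 ranked 151 and Sult1c2 8402. When CPM was instead divided by the length of all annotated exons, Sult2a8 (224 CPM per kb) stood above Sult1a1 (191), and Sult1c2 (2.70) above Sult5a1 (1.92). These 2 neighbouring pairs therefore had no settled order, whereas Sult1d1 (41.8 CPM per kb) and Sult1b1 (10.8) kept the same places on both measures.

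**Figure D1:**
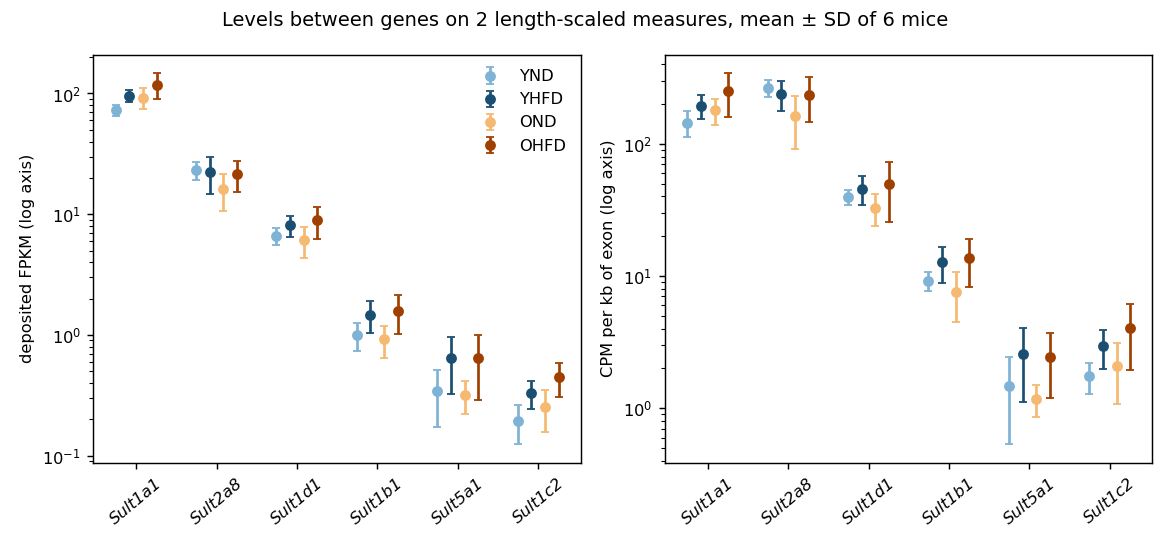
Levels of the 6 genes in each group on 2 length-scaled measures, both on log axes: deposited FPKM on the left and CPM per kilobase of annotated exon on the right, with points for the mean and bars for the SD of 6 mice. Sult1a1 leads on FPKM in every group, while on CPM per kb Sult2a8 leads in YND and YHFD and Sult1a1 in OND and OHFD.

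Sult1a1, the main phenol sulfotransferase of liver, was 1 of 2 members called in any comparison. Its level had a lowest, median and highest value of 160, 206 and 287 CPM in YND, 218, 286 and 370 in YHFD, 170, 288 and 329 in OND, and 226, 363 and 593 in OHFD. The OHFD and YND ranges overlapped when both batches were pooled, and the mean of every group was higher in batch 1. Within batch 1 the 3 OHFD mice (433 to 593 CPM) lay above the 3 YND mice (217 to 287), and within batch 2 OHFD (226 to 293) again lay above YND (160 to 196). In the same way YHFD lay above YND within batch 1 (321 to 370 against 217 to 287) and within batch 2 (218 to 251 against 160 to 196).

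Sult1c2, a less abundant SULT1 enzyme of phenolic and arylamine substrates, had a lowest, median and highest level of 2.25, 3.28 and 4.03 CPM in YND, 3.44, 5.40 and 8.23 in YHFD, 0.817, 4.11 and 5.79 in OND, and 3.33, 6.49 and 12.6 in OHFD. In batch 1 all OHFD mice (7.80 to 12.6) exceeded all YND mice (2.25 to 4.03). In batch 2 the same groups overlapped, at 3.33 to 5.18 in OHFD and 2.46 to 3.96 in YND.

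**Figure D2:**
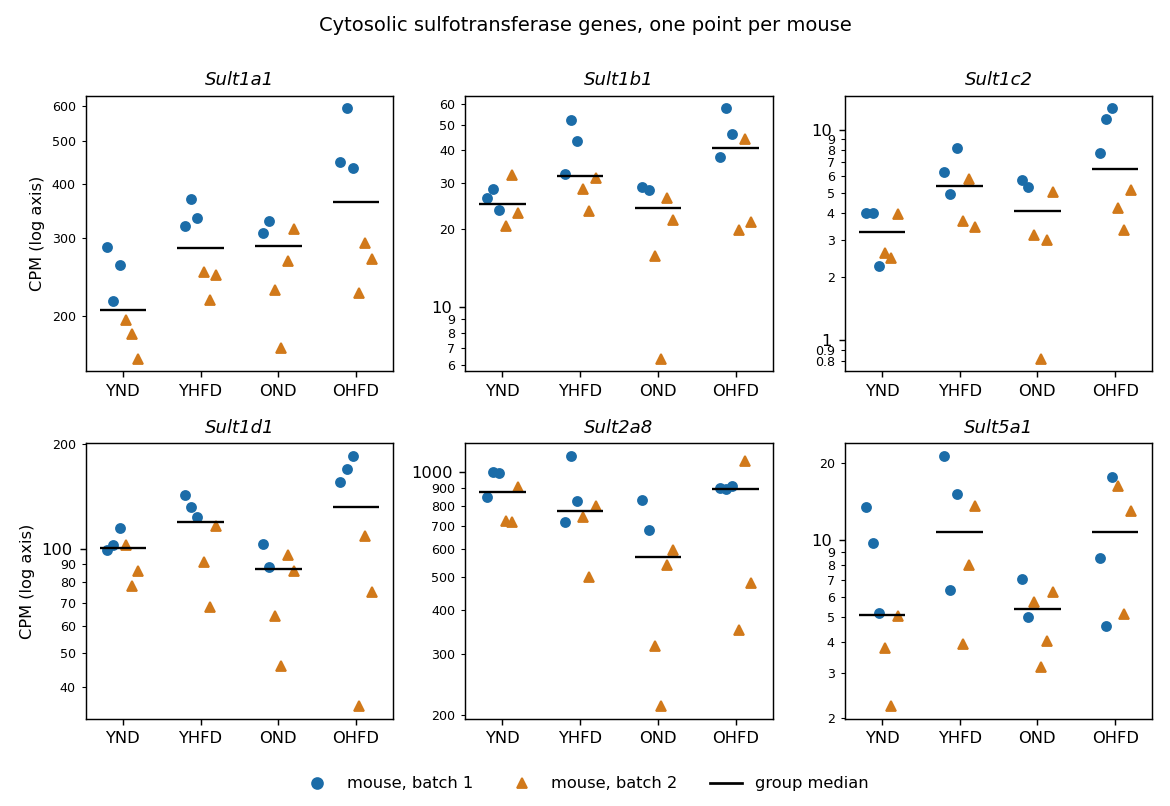
CPM of each gene (log axes) in every mouse, by group, with circles for batch 1, triangles for batch 2 and a bar for the group median. In batch 1 the OHFD mice lie above the YND mice for Sult1a1, Sult1b1, Sult1c2 and Sult1d1, while in batch 2 they do so for Sult1a1 and Sult5a1. Each such split sets 3 mice against 3, and the share of all genes that split this way was not counted.

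Differences between groups were tested with edgeR's quasi-likelihood F test in a model of all 24 mice with batch as a term, and p-values were adjusted by the Benjamini-Hochberg method over the 13583 genes tested in each comparison. All 6 members passed the filter on low counts. Fold changes are on the log2 scale with the standard error (SE). A gene was called at an adjusted p under 0.05.

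In OHFD over YND, which joins age and diet, Sult1a1 and Sult1c2 rose. Sult1a1 was 1.69-fold higher (log2 fold change 0.76, SE 0.139, edgeR adjusted p = 0.000657) and Sult1c2 2.11-fold higher (1.08, SE 0.2998, edgeR adjusted p = 0.0102). The 2 calls among 6 genes compare with 30.2% of all genes tested, so the share of members called was near the background. The members' median log2 fold change was 0.63, against 0.044 over all genes. Of the members not called, Sult5a1 stood at 0.86 (SE 0.392, edgeR adjusted p = 0.0971), Sult1b1 at 0.50 (SE 0.245, edgeR adjusted p = 0.122), Sult1d1 at 0.23 (SE 0.220) and Sult2a8 at -0.19 (SE 0.238). Within batch 2 alone neither call was kept (Sult1a1 0.56, adjusted p = 0.101, Sult1c2 0.51, adjusted p = 0.490, both by edgeR), whereas batch 1 alone gave 0.92 and 1.58 and also called Sult1b1 and Sult1d1. Of all genes, 4.33% were called within batch 2 and 6.79% within batch 1. Macrophage (8 of 9), endothelial (7 of 7), stellate cell (6 of 7), T and NK cell (3 of 3 tested) and B and plasma cell (2 of 2 tested) markers also rose in this comparison, and their part in the result was not tested.

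With HFD in young mice, no member was called (3.5% of all genes were). At an unadjusted p under 0.05 edgeR gave 3 of the 6 (21.2% of all genes), DESeq2 called 1 (1255 of all genes) and limma on FPKM 0. Sult1a1 stood at 0.42 (SE 0.138, edgeR adjusted p = 0.0838), Sult1c2 at 0.70 (SE 0.296, edgeR adjusted p = 0.168) and Sult5a1, an enzyme whose substrates are little described, at 0.84 (SE 0.385, edgeR adjusted p = 0.204). The members' median was 0.41, against 0.014 over all genes. Sult2a8, at -0.15, was the only member with a value below 0. Sult5a1 had a lowest, median and highest level of 2.23, 5.10 and 13.4 CPM in YND and 3.92, 10.8 and 21.4 in YHFD, and Sult1b1 of 20.5, 24.9 and 32.1 CPM in YND and 23.5, 31.8 and 52.3 in YHFD, so that for both genes the groups overlapped. Within each batch alone the value of Sult1a1 was much the same (0.42 in batch 1 and 0.44 in batch 2), whereas that of Sult1b1 was 0.71 in batch 1 and 0.17 in batch 2. DESeq2 called Sult1a1 (0.44, DESeq2 adjusted p = 0.0199), and edgeR did so without OND replicate 4 (adjusted p = 0.0382) or without OHFD replicate 2 (adjusted p = 0.0413), mice of other groups that share the estimate of the spread.

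With HFD in old mice, again no member was called, against 3.01% of all genes, although all 6 log2 fold changes were above 0. At an unadjusted p under 0.05 edgeR gave 4 of the 6 (22.01% of all genes), DESeq2 called 1 (1123 of all genes) and limma on FPKM 0. The members' median was 0.61, against -0.0070 over all genes. Sult1b1, an enzyme of thyroid hormones and phenols, had a lowest, median and highest level of 6.37, 23.9 and 28.8 CPM in OND and 19.8, 40.9 and 57.7 in OHFD, with a log2 fold change of 0.74 (SE 0.248, edgeR adjusted p = 0.0861). The groups overlapped, since 2 OHFD mice of batch 2 lay within the OND range. DESeq2 called Sult1b1 (0.76, DESeq2 adjusted p = 0.0311). Sult5a1 had the largest value, 1.01 (SE 0.393, edgeR adjusted p = 0.137), from 3.19, 5.35 and 7.06 CPM (lowest, median, highest) in OND to 4.61, 10.8 and 17.6 in OHFD. The remaining values were 0.76 for Sult1c2, 0.48 for Sult2a8, 0.41 for Sult1d1 and 0.33 for Sult1a1. Without OND replicate 4 no member was called by edgeR and the values were 0.60 for Sult1b1, 0.96 for Sult5a1, 0.61 for Sult1c2, 0.36 for Sult2a8, 0.34 for Sult1d1 and 0.28 for Sult1a1.

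**Figure D3:**
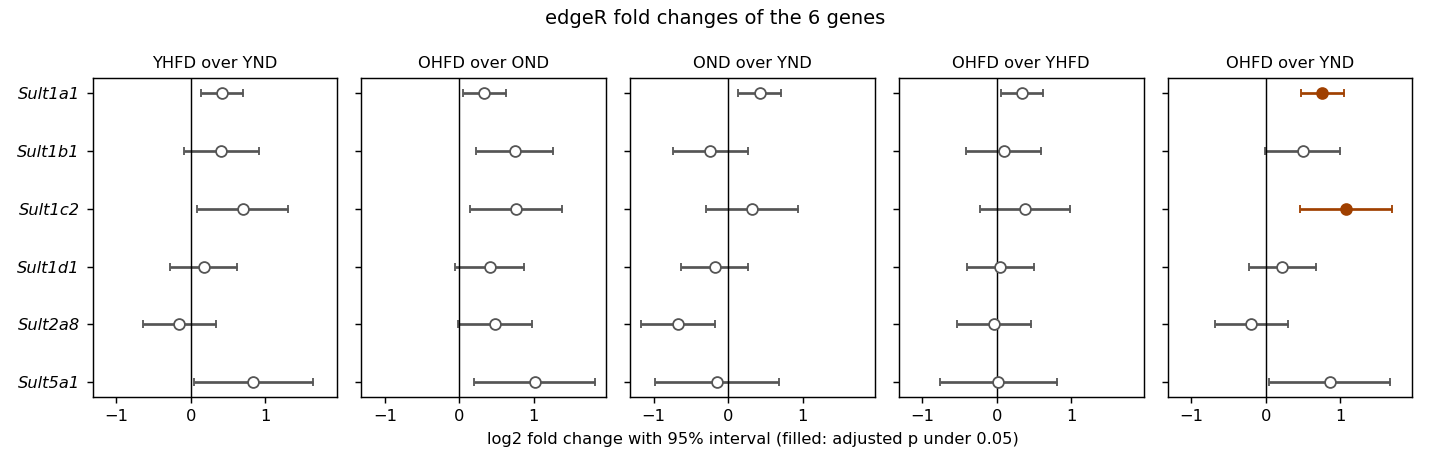
Log2 fold changes of the 6 genes in 5 comparisons, with 95% intervals built from the SE derived from edgeR's F value. Filled points mark an adjusted p under 0.05. The only filled points are Sult1a1 (0.76) and Sult1c2 (1.08) in OHFD over YND, and the intervals of Sult5a1 are the widest.

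With age on the normal diet, no member was called either, against 8.5% of all genes. At an unadjusted p under 0.05 edgeR gave 2 of the 6 (22.2% of all genes), DESeq2 called 2 (1676 of all genes) and limma on FPKM 0. Those 2 genes had values of opposite sign. Sult1a1 stood at 0.42 (SE 0.139, edgeR adjusted p = 0.0591). Sult2a8 had a lowest, median and highest level of 718, 878 and 1000 CPM in YND and 212, 569 and 833 in OND, so that 1 OND mouse reached the YND range, and its log2 fold change was -0.67 (SE 0.239, edgeR adjusted p = 0.0831). Within batch 1 alone it was -0.31 and within batch 2 alone -0.92. With DESeq2 both genes were called (adjusted p = 0.0106 for Sult1a1 and 0.0441 for Sult2a8). Without OND replicate 4 the value was -0.52 for Sult2a8 (edgeR adjusted p = 0.203) and 0.51 for Sult1a1, which was then called (edgeR adjusted p = 0.0277). The other 4 members were not called with that library (Sult1b1 -0.24, Sult1d1 -0.18, Sult5a1 -0.15, Sult1c2 0.32) or without it (-0.060, -0.081, -0.066 and 0.51). The members' median was -0.17, against 0.0070 over all genes. The macrophage (9 of 9), stellate cell (6 of 7) and endothelial (5 of 7) markers that rose in OND move with this comparison, and their part in it was not tested.

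With age on HFD no member was called (2.24% of all genes were). At an unadjusted p under 0.05 edgeR gave 1 (20.97% of all genes), Sult1a1 (0.34, SE 0.138, edgeR adjusted p = 0.165), while DESeq2 and limma called 0. The largest value was that of Sult1c2, 0.38 (SE 0.293, edgeR adjusted p = 0.471), with a 95% interval of -0.23 to 0.98. The values of Sult1b1, Sult1d1, Sult2a8 and Sult5a1 lay between -0.039 and 0.090. The 95% interval was widest for Sult5a1, from -0.77 to 0.80, and those of the other 3 lay between -0.53 and 0.59. None of the 9 macrophage, 7 endothelial, 7 stellate cell or 3 tested T and NK cell markers was called with age on HFD, and 1 of the 2 tested B and plasma cell markers rose. The summed CPM of T and NK cell markers, 0.170 to 2.01 in YHFD and 2.15 to 8.06 in OHFD, did not overlap, and that of B and plasma cell markers was 0.452 to 2.61 in YHFD and 1.72 to 15.1 in OHFD. The part of those cells in these values was not tested.

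The response to HFD was compared between ages with an interaction term. The interaction was called for 0% of all genes and for no member by edgeR, with no member at an unadjusted p under 0.05 (1247 of all genes were) and none called by DESeq2 or limma. Sult2a8 had the largest value, 0.63 (SE 0.337, edgeR adjusted p = 0.563), from -0.15 in young to 0.48 in old mice. For Sult1a1 it was -0.084 (SE 0.197), with a 95% interval of -0.49 to 0.32. Without OND replicate 4 the interaction was 0.48 for Sult2a8 and -0.17 for Sult1a1, and that of Sult1c2 turned from 0.061 to -0.12. None of these was called.

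Sult1d1, a sulfotransferase of catecholamines, was called in none of these comparisons. It had a lowest, median and highest level of 78.2, 101 and 114 CPM in YND, 68.0, 119 and 143 in YHFD, 46.2, 87.3 and 103 in OND, and 35.3, 132 and 184 in OHFD. The OHFD mice fell apart by batch: those of batch 1 spanned 155 to 184 CPM, above all 6 YND mice, and those of batch 2 spanned 35.3 to 109. In OHFD over YND its log2 fold change was accordingly 0.66 in batch 1 alone (edgeR adjusted p = 0.0219) and -0.28 in batch 2 alone (edgeR adjusted p = 0.609). The lowest OHFD values, 35.3 and 75.1 CPM in replicates 4 and 6 of batch 2, were in libraries with macrophage marker sums of 396 and 539 CPM and endothelial sums of 359 and 541 CPM. Replicate 5 of the same batch, at 108.5 CPM, had sums of 72.9 and 126 CPM, and the part of those cells in the result was not tested. Over all genes tested, the median SD of log2 CPM was 0.543 in OHFD and 0.238 in YND. In OHFD the summed CPM of pericentral hepatocyte markers was 5557 to 8362 in batch 1 and 2264 to 3774 in batch 2. That of periportal markers overlapped, at 2817 to 7616 and 2573 to 4563. The part of these markers was not tested either.

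As a description over all 24 mice, the tested genes whose log2 CPM was most like that of each member were named by Pearson's r. Sult2a8 was most like Phyh (r = 0.958) and Scp2 (0.936), which act in peroxisomal lipid breakdown and sterol carrier transport. Sult1d1 was most like Trmt2b (0.934) and Adk (0.933), and Sult1b1 like Gm20319 (0.921) and Acat1 (0.911), a mitochondrial thiolase. Sult1a1 was most like C330018D20Rik (0.886) and Nmi (0.881), Sult1c2 like Zfand1 (0.854), and Sult5a1 like Aqp11 (0.750) and Nmrk1 (0.700). The 24 mice differ in batch, group and cell makeup, all of which enter these values, and no test was made of them.

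A further 21 rows of the count table carried the symbol of a sulfotransferase gene or pseudogene. Only 1 of them, Sult2a7, passed the filter, with a lowest, median and highest level of 1.09, 2.47 and 4.35 CPM in YND, 1.85, 2.65 and 3.56 in YHFD, 2.01, 4.87 and 7.22 in OND, and 2.16, 4.02 and 16.2 in OHFD. These ranges overlapped. Sult2a7 had a log2 fold change of 1.19 in OHFD over YND (SE 0.458, edgeR adjusted p = 0.0506) and was called in no comparison. In batch 1 its levels in OHFD (5.15 to 16.2 CPM) lay above those in YND (1.09 to 2.45), and in batch 2 the groups overlapped, at 2.16 to 2.90 CPM in OHFD and 2.49 to 4.35 in YND. Of its 429 reads in OHFD, 338 came from batch 1. Of the 20 not tested, 7 had no read in any mouse, 9 had 12 reads or fewer in all, and 4 had between 21 and 165.

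Sult1e1, the oestrogen sulfotransferase, was among those 4. It had between 0 and 2 reads per YND mouse (4 in all), 0 to 20 per YHFD mouse (45), 0 to 10 per OND mouse (15) and 2 to 52 per OHFD mouse (101). Of the reads in OHFD, 81 came from the 3 mice of batch 1 and 20 from those of batch 2. In a fit without the filter, over 32336 genes, Sult1e1 was called in YHFD over YND (3.26, SE 0.887, edgeR adjusted p = 0.00769), in OHFD over OND (2.54, SE 0.808, edgeR adjusted p = 0.0487) and in OHFD over YND (4.63, SE 0.891, edgeR adjusted p = 6.45e-06). Without OND replicate 4 it was not called in OHFD over OND (2.36, SE 0.815, edgeR adjusted p = 0.0821). These fold changes depend on the prior count, since several mice had no read. In the same 3 comparisons the fit without the filter called 4.56%, 3.43% and 14.3% of all genes. For the interaction it called 1.82%, against 0% with the filter. Of the 101 OHFD reads 52 came from replicate 2, and no fit of Sult1e1 without that mouse was made. The hydroxysteroid sulfotransferases Sult2a1 and Sult2a2 had 16 of 21 and 42 of 53 reads in OHFD, all of them from batch 1, and Sult3a1 had 26 reads in YHFD, 23 of them from 1 mouse, and 23 in OHFD. None of these 3 genes was called in the same fit.

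**Figure D4:**
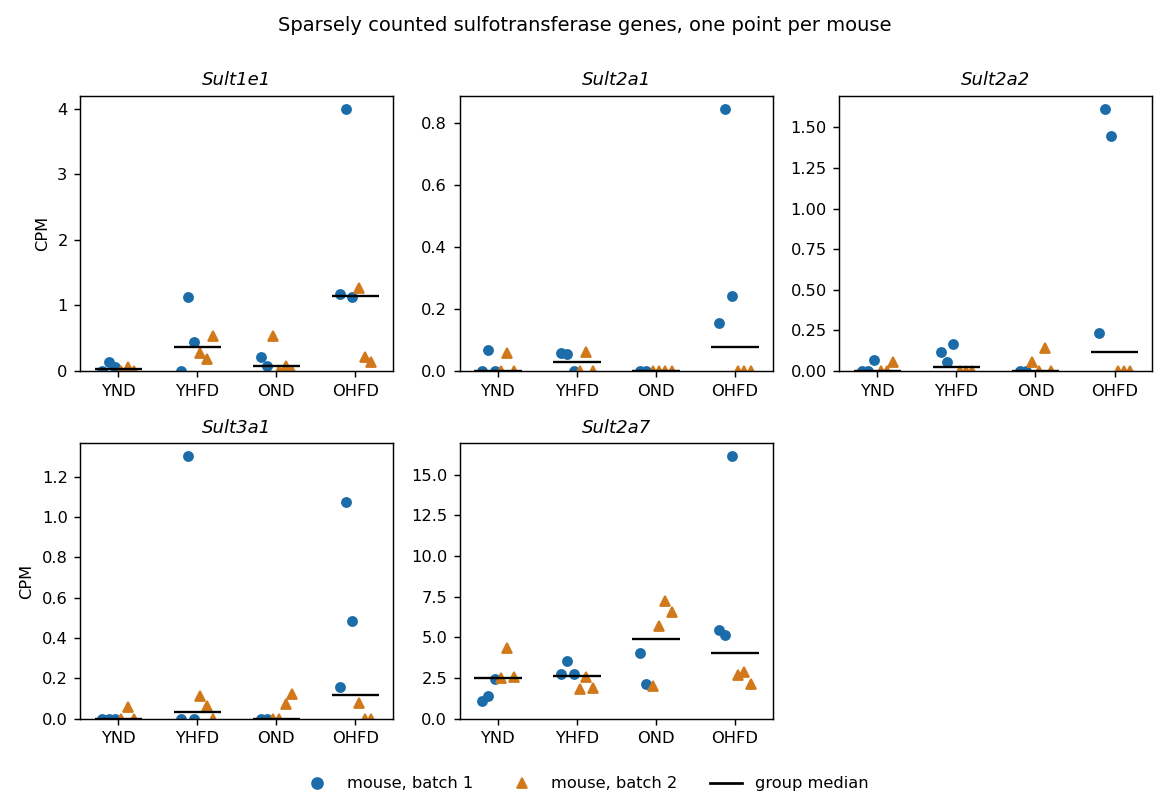
CPM of 5 further sulfotransferase genes in every mouse, on linear axes, with circles for batch 1, triangles for batch 2 and a bar for the group median. For Sult2a1 and Sult2a2 all reads of the OHFD group come from the 3 batch 1 mice, and for Sult1e1 52 of the 101 OHFD reads come from 1 mouse.

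The supply of sulfate and of the donor PAPS was followed in a list of 24 genes, of which 21 were tested. With HFD in young mice 0 rose and 2 fell, with HFD in old mice 0 rose and 1 fell, and with age on the normal diet 0 rose and 1 fell, where 3.5%, 3.01% and 8.5% of all genes were called. With age on HFD, and in the interaction, none was called by edgeR (3 and 2 of the 21 had an unadjusted p under 0.05). In OHFD over YND 2 rose and 5 fell, 7 of 21 where 30.2% of all genes were called, and the list's median log2 fold change was -0.11, against 0.044 over all genes.

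Csad, the decarboxylase that turns cysteine sulfinate towards taurine rather than sulfate, fell with HFD at both ages. It had a lowest, median and highest level of 548, 665 and 750 CPM in YND, 84.2, 108 and 151 in YHFD, 267, 393 and 600 in OND, and 88.2, 131 and 157 in OHFD. Neither HFD group overlapped its control group. The log2 fold change was -2.50 in young (SE 0.207, edgeR adjusted p = 1.20e-07) and -1.74 in old mice (SE 0.204, edgeR adjusted p = 5.64e-05), and the difference between them was not called (0.76, SE 0.281, edgeR adjusted p = 0.531). Csad was also lower in OND than in YND (-0.62, SE 0.197, edgeR adjusted p = 0.0493). Without OND replicate 4 that call was lost (-0.52, SE 0.192, edgeR adjusted p = 0.138), while the fall with HFD in old mice was -1.81 (SE 0.194, edgeR adjusted p = 1.56e-05) and the difference between ages 0.67 (edgeR adjusted p = 0.734).

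Ethe1, a mitochondrial persulfide dioxygenase on the route from sulfide to sulfate, fell with HFD in young mice (-0.81, SE 0.179, edgeR adjusted p = 0.0169). Its levels were 39.5 to 74.0 CPM in YND and 23.5 to 41.2 in YHFD, which overlapped narrowly. Papss1, a PAPS synthase, fell in OHFD over YND (-0.63, SE 0.160, edgeR adjusted p = 0.00585), from 13.8 to 23.6 CPM in YND to 8.37 to 16.3 in OHFD. The more abundant synthase in hepatocytes, Papss2, was called in no comparison, with a lowest, median and highest level of 142, 182 and 209 CPM in YND and 68.6, 126 and 226 in OHFD. Cbs, which starts transsulfuration, also fell in OHFD over YND (-0.45, SE 0.122, edgeR adjusted p = 0.00917). In the same comparison Slc35b3, a PAPS transporter of the Golgi, rose (0.47, SE 0.139, edgeR adjusted p = 0.0150), as did Got1, an aspartate aminotransferase (0.85, SE 0.258, edgeR adjusted p = 0.0169).

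Among the 10 sulfatase genes tested, which encode the opposing removal of sulfate and its cofactor enzymes, Galns was higher in old mice on either diet (log2 fold change 0.78 on the normal diet and 1.43 on HFD, edgeR adjusted p = 0.0324 and 0.00442). It was the 1 of 10 called with age on each diet, where 8.5% and 2.24% of all genes were. Without OND replicate 4 the value for Galns on the normal diet was 0.80 and not called (edgeR adjusted p = 0.0621). Galns, a lysosomal sulfatase of glycosaminoglycans, was named after its values were seen. Its 3 highest levels, 24.6 and 16.8 CPM in OHFD replicates 4 and 6 and 16.6 CPM in OND replicate 3, were in libraries with macrophage marker sums of 396, 539 and 742 CPM. In the other direction, YHFD replicates 1, 5 and 6, with sums of 104, 169 and 161 CPM, had Galns at 5.57, 5.52 and 4.74 CPM, and OND replicates 1 and 6, with sums of 43.8 and 50.6 CPM, had it at 9.67 and 13.4 CPM. The part of those cells in the result was not tested. In OHFD over YND 1 sulfatase gene rose and 1 fell, 2 of 10 where 30.2% of all genes were called, and with HFD none was called by edgeR in young or old mice (1 and 2 of the 10 had an unadjusted p under 0.05).

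Of 15 transcription factor genes known to act on sulfotransferase genes or on the hepatocyte programme, 1 was called with HFD in young mice (3.5% of all genes were), namely Rora (-0.43, SE 0.109, edgeR adjusted p = 0.0332). In OHFD over YND 1 of the 15 rose and 6 fell, where 30.2% of all genes were called. Rora, a nuclear receptor, was among those that fell (-0.52, SE 0.109, edgeR adjusted p = 0.00166).

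**Figure D5:**
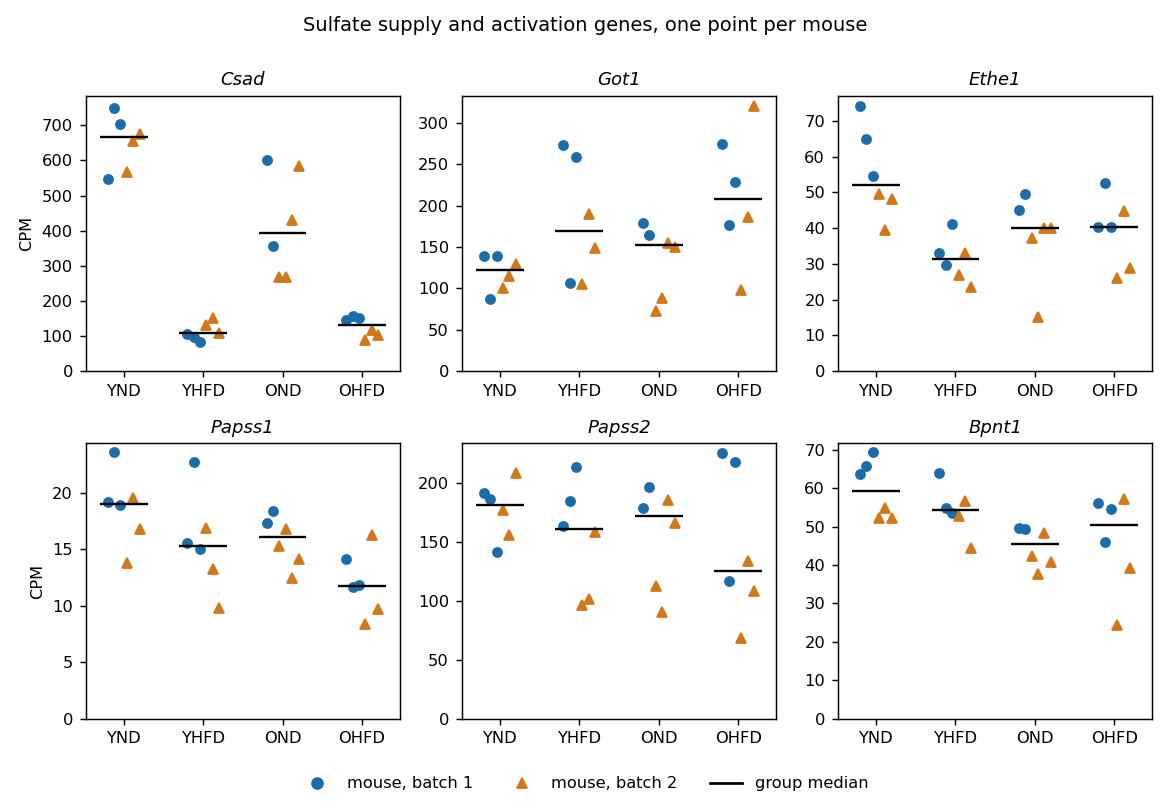
CPM of 6 genes of sulfate supply and PAPS metabolism in every mouse, on linear axes, with circles for batch 1, triangles for batch 2 and a bar for the group median. Csad lies at 548 to 750 CPM in YND and at 84.2 to 151 in YHFD, and Papss1 and Papss2 overlap between all groups.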

How the data were processed

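Per the labels and the study's methods, the authors aligned the reads with STAR to the mm10 genome and counted reads per gene with HTSeq, and the submitters' processing notes list FastQC 0.11.8, STAR 2.7.3a and HTSeq 0.11.2. The deposited count table holds raw read counts of 55421 genes. The authors also deposited FPKM values of 37789 genes, made with CuffLinks and, by the table's name, adjusted for batch with ComBat. Strand use and the handling of duplicates are not given in the sources used here. Every column of both tables matched the labels of 1 sample.

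Counts were scaled by TMM (edgeR 4.0.16, R 4.3.3), genes were kept by filterByExpr with a minimum count of 10, and all 24 mice were fitted in 1 quasi-likelihood model of group and batch, with Benjamini-Hochberg adjustment over the 13583 genes kept. CPM use TMM-scaled library sizes. The fit was tested on simulated data. DESeq2 1.42.0 and limma 3.58.1 on log2(FPKM + 1) were alternatives, as were no batch term, a replicate block, RLE scaling, no filter, only the groups compared, each batch alone and each mouse left out. Where a mouse was left out, the others shared 1 estimate of the spread. The labels number replicates without naming animals, so p-values measure the spread between these libraries, called mice here; the libraries of a group differed by more than sampling noise.

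The 6 genes, the gene lists and the named-gene rule were chosen with earlier results of these data known. Named were the 6 genes and other tested sulfotransferase genes, up to 3 called genes per direction from the sulfate list and 2 from the regulators, and the 2 genes most correlated with each member. Galns, Papss2 and the untested Sult1e1, Sult2a1, Sult2a2 and Sult3a1 were named outside this rule, after their values were seen. Some genes that the rule names are not reported here. Positions and exon lengths came from GENCODE vM21 (GRCm38) and promoters from RefSeq (GRCm38.p6). Coding sequences were aligned with Biopython 1.88.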

Additional observations from a re-analysis of the deposited data

Results flagged for a closer look

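In 24 checks of a single mouse against its group (6 genes in 4 groups of 6), chance alone flags about 1 in 20 groups. The lowest value was set apart once, for Sult1c2 in OND replicate 4, at 0.817 CPM against 3.003 CPM in the next mouse, a gap of 0.653 of the group's range on the log2 CPM scale. The same library had the highest macrophage marker sum of its group.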

How the results depend on the processing

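The number of members called depended on the setting in 4 comparisons, and was 0 in every setting with age on HFD and for the interaction (for which 1.82% of all genes were called without the filter on low counts). The share of all genes called in the same fit is given in parentheses. With HFD in young mice the number was 0 in the model used throughout (3.5%), 1 with DESeq2 (9.24%), 1 without the filter on low counts (4.56%), 3 with only the mice of the 2 groups compared (18.6%), and 0 to 1 when each mouse was left out in turn (1.05% to 7.23%). With HFD in old mice it was 0 (3.01%), against 1 with DESeq2 (8.27%), 1 with the replicate block (3.28%) and 2 without the filter (3.43%). With age on the normal diet it was 0 (8.5%), against 2 with DESeq2 (12.3%), 1 with the replicate block (9.94%), 1 with RLE scaling (8.62%), 1 without the filter (6.35%), and 0 to 1 with each mouse left out (4.26% to 11.5%). In OHFD over YND it was 2 (30.2%), against 4 without the filter (14.3%), 1 with limma on genes of mean FPKM of at least 1 (24.2%), a filter that leaves Sult1c2 and Sult5a1 untested, 4 in batch 1 alone (6.79%), 0 in batch 2 alone (4.33%), and 2 to 3 with each mouse left out (24.1% to 34.1%). The third gene was Sult1b1 without OND replicate 4 (edgeR adjusted p = 0.0352) and Sult5a1 without OHFD replicate 2 (0.0373) or YND replicate 1 (0.0448). Sult1a1 in that comparison ran from 0.65 to 0.86 and Sult1c2 from 0.92 to 1.24 over the left-out mice, and both stayed called in all 24.

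Replicate numbers did not pair mice: same-numbered mice of different groups deviated together by a mean correlation of 0.182 (lowest -0.320), and by -0.00199 (lowest -0.444) once batch was removed. The replicate block added the calls of Sult1b1 with HFD in old mice and of Sult2a8 with age on the normal diet.

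Signs changed for values that were not called. In batch 1 alone, Sult1b1 with age on the normal diet became 0.15, Sult5a1 with age on HFD -0.50, and the interactions of Sult1a1, Sult1b1 and Sult1c2 0.15, -0.034 and -0.034. In batch 2 alone, Sult5a1 with age on the normal diet became 0.38, Sult1c2 and Sult1d1 with age on HFD -0.033 and -0.35, Sult1d1 in OHFD over YND -0.28, and the interactions of Sult1c2 and Sult1d1 -0.038 and -0.063. Sult5a1 with age on HFD was also -0.066 without the batch term, -0.026 without the filter, -0.00733 with only the 2 groups, and -0.00585 and -0.028 with limma at pseudocounts of 1 and 0.1. The interaction of Sult1a1 became 0.065 without the batch term and 0.017 with the replicate block. With each mouse left out, the values with age on HFD ran from -0.052 to 0.19 for Sult1b1, -0.055 to 0.23 for Sult1d1, -0.28 to 0.085 for Sult2a8 and -0.23 to 0.22 for Sult5a1, Sult5a1 with age on the normal diet from -0.33 to 0.087, and the interactions from -0.18 to 0.013 for Sult1a1, -0.16 to 0.24 for Sult1c2 and -0.13 to 0.38 for Sult5a1. The cause of these moves was not tested. Sult1c2 and Sult5a1 rest on as few as 10 and 39 reads in a mouse, which limits the precision of their values.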
